A study of Mus musculus with 4 samples.

Results

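The 34 genes described here encode enzymes, transporters and regulators of fatty acid oxidation together with target genes of PPARα, and they were chosen by symbol in the platform annotation. All 34 of the 34 listed symbols had a probe set, out of 18194 genes that the annotation names. Liver and duodenum were taken from wild-type mice and from mice with a transgene for a constitutively activated aryl hydrocarbon receptor (AhR), a transcription factor that otherwise acts when a ligand such as dioxin binds it. Each of the 4 arrays held RNA pooled from 3 female mice aged 5 to 6 weeks, on standard chow with free access to food and water. The sources used here do not give the promoter that drives the transgene, the number of founder lines, the background strain or the hour of collection. With 1 array per group no difference has a replicate check, and values are given as measured, without an error or a test; precision is limited by the number of arrays.

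PPARα is a nuclear receptor that fatty acids activate, and in liver it switches on the genes that burn fat during fasting. Long-chain fatty acids enter mitochondria as carnitine esters, are shortened by repeated rounds of dehydrogenation, hydration, oxidation and thiolysis, and hand their electrons to the respiratory chain through a flavoprotein relay. Peroxisomes shorten very long and dicarboxylic fatty acids by a parallel route, and acyl-CoA thioesterases release free fatty acids from their CoA esters.

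The values are MAS5 signals, a linear brightness per probe set, and each gene is represented by its brightest probe set. Signals below 129.3, the floor, were raised to it before a log2 ratio was taken, a gene below the floor on both arrays has no ratio, and where 1 of the arrays was at the floor the fold is a bound. A gene was called higher or lower at 1.5-fold or more. Liver and duodenum arrays carried the markers of their tissue: albumin (Alb) had a signal of 82739 in wild-type liver and 216 in wild-type duodenum, and lactase (Lct) 115 and 19549. Cyp1a1, the classical AhR target, was 33.9-fold higher in transgenic liver and 9.86-fold higher in transgenic duodenum. Between 31 and 34 of the 34 genes lay above the floor on each array. The plot of signals by array shows every gene.

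**Figure D1:**
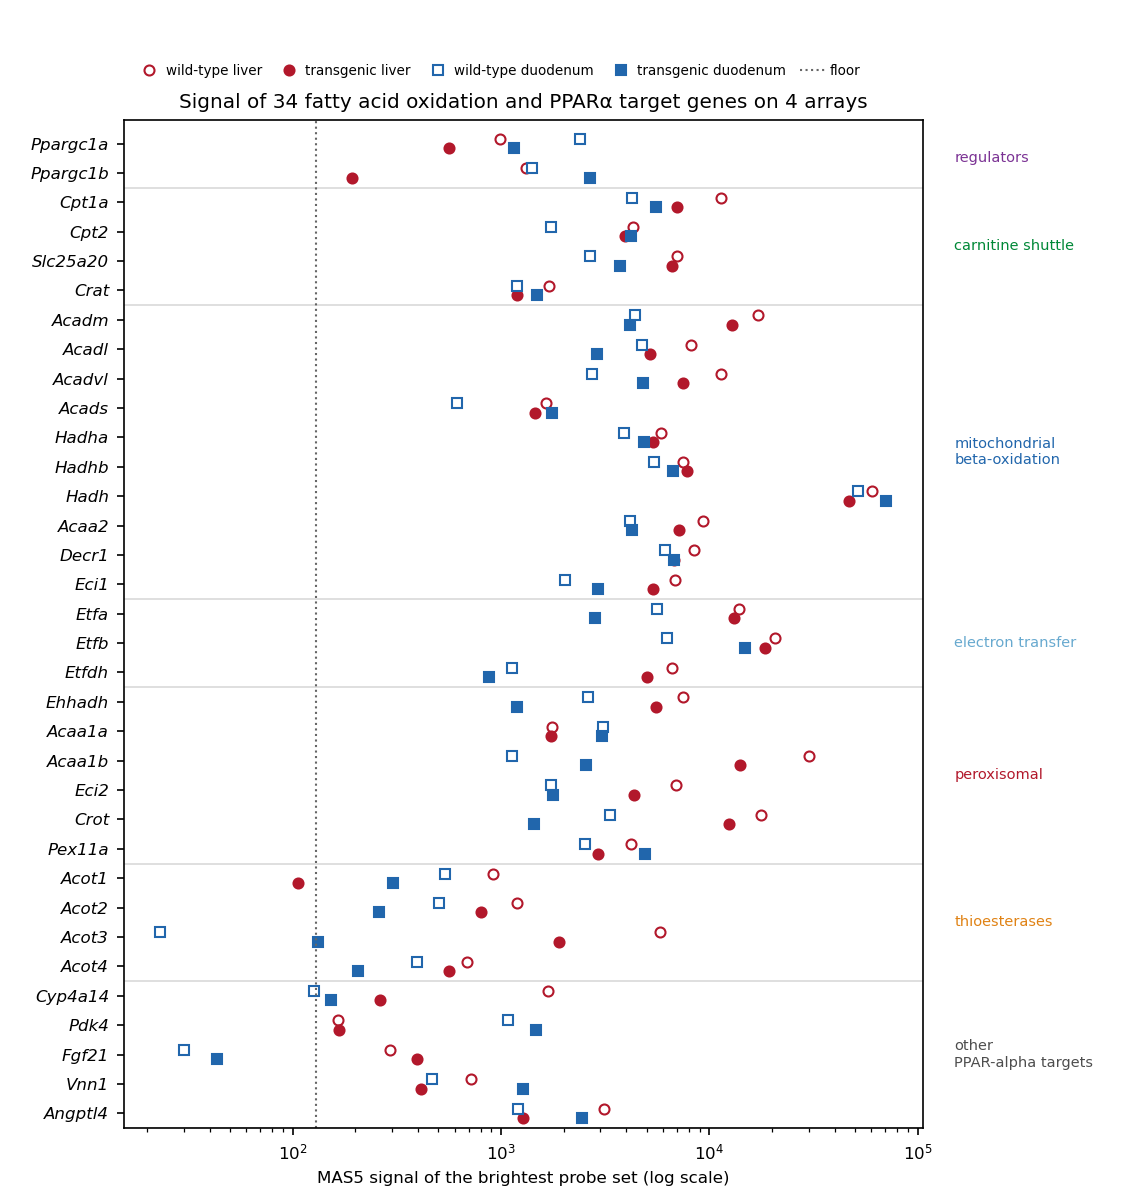
MAS5 signal (log axis) of the brightest probe set of each of the 34 genes, with 1 point per array: circles for liver, squares for duodenum, open for wild type and filled for transgenic. For Ppargc1b, Acot1, Acot3 and Cyp4a14 the filled circle lies far to the left of the open one, while for Vnn1 and Acads the filled square lies to the right of the open one.

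In liver, 13 of the 34 genes were called lower in the transgenic pool, 0 were called higher and 21 were neither. Among all 13952 genes measured in liver, 12.1% were called lower and 13.5% higher. The log2 ratio was below 0 for 31 of the 34 genes and their median was -0.42, where the median over all genes was 0.01. At 2-fold or more, 6 of the 34 were lower and 0 higher, against 3.6% and 4.72% of all genes. The group as a whole is bright, and among all 3553 genes with a signal of at least 1000 on both liver arrays the median was -0.01, with 7.18% called lower and 5.99% higher. Of the 25 genes described here that reached that signal on both arrays, 7 were lower, 0 were higher and the median was -0.39.

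These liver counts depend on the scale of the arrays. The 18 probe sets of the spiked hybridization controls had a median log2 ratio of -0.68 (SD over probe sets 0.16) in transgenic over wild-type liver. On a scale set by them the median of all genes moves to 0.69, 59.3% of all genes are higher, and 6 of the 34 genes are higher and 5 lower, with a median of 0.26. The median of the 34 genes minus that of all genes was -0.43. It is the same on either scale by construction, since the change of scale shifts every gene by the same amount. Among the 13 genes called lower, Acadl, Acadvl, Eci2 and Acot2 have a ratio above 0 on the scale of the spiked controls. On the deposited scale, 9 of 10 hepatocyte markers measured had a log2 ratio below 0, and their median was -0.35. Of the 10 markers, 0 were called lower and 1 higher, Ass1, on a probe set with a wild-type liver signal of 584. Their summed signal was 534258 in wild-type and 399994 in transgenic liver. Markers of stellate cells and fibroblasts were called higher in 9 of 10 cases, with a summed signal of 10442 in wild-type and 29599 in transgenic liver. Of 9 enterocyte markers, 5 were called higher and 1 lower in liver. Among those higher, Lct, Slc15a1 and Vil1 were below the floor in wild-type liver, at 115, 82.9 and 26.1, so their folds are bounds. Other gut markers called higher in liver were 2 of 4 for goblet cells, 3 of 4 for Paneth cells and 2 of 5 for Brunner gland and stomach, with 0 lower. The part of these cells in the result was not tested. With these arrays the share of hepatocytes, the RNA per hepatocyte and the scale of the arrays cannot be told apart.

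The functional groups had different median ratios in liver, where the median of the 10 hepatocyte markers was -0.35. Median log2 ratios were -1.80 for the 2 coactivators, -1.10 for the 4 thioesterases, -0.80 for the 5 other PPARα targets, -0.51 for the 6 peroxisomal genes, -0.36 for the 10 enzymes of mitochondrial β-oxidation, -0.32 for the 4 genes of the carnitine shuttle and -0.16 for the 3 electron transfer genes. Called lower were 2 of 2 coactivators, 3 of 4 thioesterases, 3 of 5 other targets, 2 of 6 peroxisomal genes, 2 of 10 mitochondrial enzymes, 1 of 4 shuttle genes and 0 of 3 electron transfer genes. Among all genes measured in liver 12.1% were called lower, and among those with a signal of at least 1000 on both arrays 7.18%. All ratios of 2-fold or more came from the coactivators, the thioesterases, the other targets and peroxisomal Acaa1b. The groups also differed in signal. In wild-type liver the coactivators gave 987 and 1323, the electron transfer genes 6602 to 20622, and Acaa1b 30063. The part of signal level in the group medians was not tested.

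In duodenum, 9 of 33 measured genes were called higher, 8 lower and 16 neither, against 19.2% higher and 25.9% lower among all 14721 genes. Their median log2 ratio was 0.29, where that of all genes was -0.11. At 2-fold or more, 6 were higher and 3 lower, against 8.74% and 11.1% of all genes. Among all 3349 genes with a signal of at least 1000 on both duodenum arrays the median was 0.17, with 27.1% higher and 12% lower; of the 25 genes described here that reached that signal, 7 were higher and 5 lower. Quantile normalization gave 22.7% higher and 18.7% lower among all genes and 9 higher and 6 lower among the 33, with medians of 0.04 for all genes and 0.12 for the group.

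Several features of the transgenic duodenum array moved with these values. The ratio of Gapdh signal at the 3′ end of the transcript to that at the 5′ end is a measure of RNA integrity. It was 1.03 in wild-type and 3.07 in transgenic duodenum, against 0.608 and 0.719 in liver. For Actb the same ratio differed less, at 1.77 in wild-type and 2.69 in transgenic duodenum, against 1.51 and 1.38 in liver. Markers of exocrine pancreas were called higher in 12 of 12 cases, with a summed signal of 6375 in wild-type and 126547 in transgenic duodenum. Markers of Brunner gland and stomach were higher in 5 of 6 cases, at 3639 and 156300, and those of smooth muscle in 5 of 6, at 11916 and 23166. Of 9 markers of enterocytes, the absorptive cells, 4 were higher and 0 lower, with summed signals of 305304 and 399558. Of 6 adipocyte markers with a probe set, adiponectin (Adipoq) and leptin (Lep) lay below the floor on all 4 arrays; of the rest, 1 was higher and 1 lower in duodenum. The part of these tissues in the duodenal values was not tested.

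The 2 coactivators, PGC-1α (Ppargc1a) and PGC-1β (Ppargc1b), bind PPARα and other receptors and raise transcription of mitochondrial genes. Ppargc1b gave liver signals of 1323 without and 193 with the transgene, and duodenal signals of 1412 and 2679. It was 6.85-fold lower in transgenic liver and 1.90-fold higher in transgenic duodenum. A single probe set reads Ppargc1b. Ppargc1a gave liver signals of 987 without and 559.9 with the transgene, and duodenal signals of 2391 and 1156, which is 1.76-fold lower in liver and 2.07-fold lower in duodenum. The duodenal direction of Ppargc1a was shared by all 5 of its probe sets, with log2 ratios from -1.61 to -0.58. In liver its other probe sets gave log2 ratios of -0.50, 0.03, 0.57 and -0.36, the last a bound since its transgenic signal was below the floor. The mean over probe sets, with that bound taken as its value, was -0.21.

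The acyl-CoA thioesterases Acot1, Acot2, Acot3 and Acot4 lie on chromosome 12 with a single non-coding RNA gene among them, in the order Acot2, Acot1, Acot4, Acot3. Acot1 acts in the cytosol, Acot2 in mitochondria, and Acot3 and Acot4 in peroxisomes. Acot1 gave liver signals of 914 without and 106 with the transgene, and duodenal signals of 539.6 and 304. The transgenic liver value was below the floor, so Acot1 was at least 7.06-fold lower there, and in duodenum it was 1.77-fold lower. Acot3 gave liver signals of 5815 without and 1902 with the transgene, and duodenal signals of 23.1 and 132. It was 3.06-fold lower in transgenic liver, and in duodenum only the transgenic array put it just above the floor. By its suffix the probe set of Acot3 can bind related transcripts, and a probe set annotated to both Acot1 and Acot2 was not used, since it names neither.

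The other pair of thioesterases differed less in liver. Acot2 gave liver signals of 1199 without and 798 with the transgene, and duodenal signals of 503 and 260, with a liver log2 ratio of -0.59, at the threshold, and a fold of 1.94 lower in duodenum. Acot4 gave liver signals of 690.3 without and 565 with the transgene, and duodenal signals of 396 and 206, a fold of 1.22 lower in liver and 1.92 lower in duodenum. Its other probe set gave a log2 ratio of -0.61 in liver and, with the transgenic signal below the floor, a bound of -1.42 in duodenum. The other Acot2 probe set, below the floor in transgenic liver, gave a bound of -0.05 there. With quantile normalization the duodenal log2 ratios were -0.57 for Acot1 and -0.58 for Acot4, both under the threshold, and with loess -0.54 and -0.55.

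The promoters of Acot1 and Acot3 are shown because these genes had the lowest ratios of the cluster in liver. Each window covers 300 bases around the RefSeq start on build GRCm38.p6, plus strand, at chr12:84009252-84009551 for Acot1 and chr12:84051894-84052193 for Acot3. Capitals mark AGGNCA on either strand, where N is any base. This is a loose form of the hexamer that nuclear receptors such as PPARα bind in pairs, and both Acot1 matches read AGGCCA.
Acot1: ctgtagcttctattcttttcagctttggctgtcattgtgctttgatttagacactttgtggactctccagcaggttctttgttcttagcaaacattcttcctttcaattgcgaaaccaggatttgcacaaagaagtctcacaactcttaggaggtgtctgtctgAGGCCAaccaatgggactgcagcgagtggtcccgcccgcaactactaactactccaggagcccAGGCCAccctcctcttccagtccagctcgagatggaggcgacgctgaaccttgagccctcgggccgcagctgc
Acot3: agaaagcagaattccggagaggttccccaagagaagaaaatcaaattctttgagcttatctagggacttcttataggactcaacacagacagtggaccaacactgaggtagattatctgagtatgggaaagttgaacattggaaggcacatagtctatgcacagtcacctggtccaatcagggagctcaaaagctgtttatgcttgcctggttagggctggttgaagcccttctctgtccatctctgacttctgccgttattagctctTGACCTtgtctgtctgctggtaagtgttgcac
The Acot1 window held 2 matches and the Acot3 window 1. Promoter windows were found for 27 of the 34 genes, and 23 of these genes (85.2%) held AGGNCA, against 57.2% of all 32851 windows. Hadha and Hadhb count as separate genes here, though both windows hold the same match, in the bases they share. A match is a description and not a binding site. The paired form, AGGNCA repeated with 1 base between (AGGNCANAGGNCA), was found in 0 of the 27 and in 0.381% of all windows, searched on both strands. This concerns only the letters in these windows.

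Of the other PPARα targets, Cyp4a14, a cytochrome that hydroxylates the end of fatty acid chains, gave liver signals of 1678 without and 262 with the transgene, and duodenal signals of 127 and 152. It was 6.39-fold lower in transgenic liver and close to the floor on both duodenum arrays. Angptl4, a secreted inhibitor of lipoprotein lipase, gave liver signals of 3118 without and 1277 with the transgene, and duodenal signals of 1208 and 2459.5. It was 2.44-fold lower in transgenic liver and 2.04-fold higher in transgenic duodenum, on a probe set that can bind related transcripts. Vnn1, which encodes a pantetheinase, gave liver signals of 719 without and 412 with the transgene, and duodenal signals of 466 and 1269, 1.75-fold lower in liver and 2.72-fold higher in duodenum. Its other probe set shared the duodenal direction at a log2 ratio of 2.15 and was below the floor in transgenic liver, where its log2 ratio of -0.22 is a bound set by the floor. Cyp4a14, Angptl4 and Vnn1 were thus the targets with a call in liver.

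The remaining targets were neither higher nor lower in liver. Pdk4, a kinase that shuts off pyruvate oxidation, gave liver signals of 164 without and 166 with the transgene, and duodenal signals of 1085 and 1471, and was therefore close to the floor in both livers. Fgf21, a fasting hormone of the liver, gave liver signals of 294 without and 394 with the transgene, and duodenal signals of 30.2 and 43.3, a fold of 1.34 higher in transgenic liver and below the floor in duodenum. The plot of duodenum against liver ratios sets these genes beside the others.

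**Figure D2:**
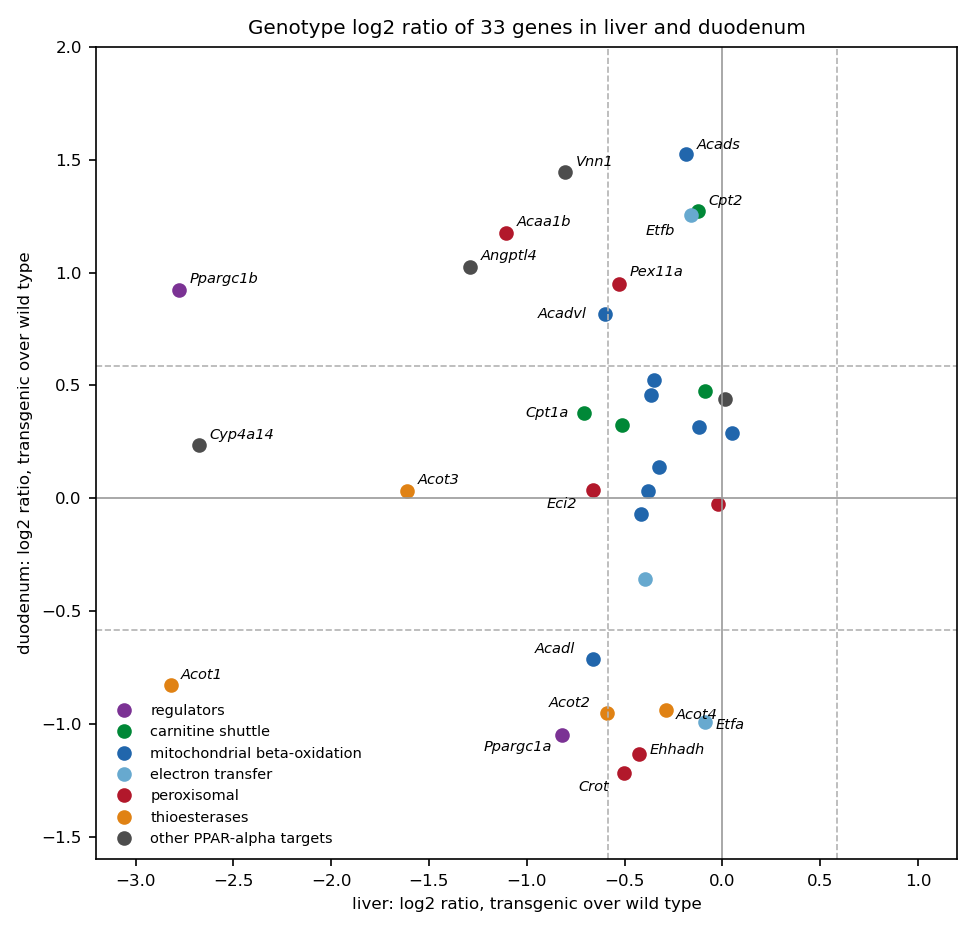
Log2 ratio of transgenic over wild type in duodenum (vertical) against liver (horizontal) for the 33 genes measured in both tissues, coloured by functional group, with dashed lines at 1.5-fold. Ppargc1b, Acaa1b, Angptl4, Vnn1 and Acadvl lie in the upper left, lower in liver and higher in duodenum, and no gene lies to the right of the liver threshold.

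Among peroxisomal genes, Acaa1b and Acaa1a encode closely related thiolases for the last step of peroxisomal β-oxidation. Acaa1b gave liver signals of 30063 without and 13970 with the transgene, and duodenal signals of 1135 and 2568, 2.15-fold lower in transgenic liver and 2.26-fold higher in transgenic duodenum. Acaa1a gave liver signals of 1756 without and 1729 with the transgene, and duodenal signals of 3102 and 3046, folds of 1.02 lower in liver and 1.02 lower in duodenum. The other Acaa1a probe set gave a log2 ratio of 1.19 in duodenum, close to the 1.18 of Acaa1b, and the mean over both Acaa1a probe sets was 0.58, so the duodenal value of Acaa1a depends on the probe set. By their suffix both can bind related transcripts, and 2 further probe sets annotated to Acaa1a and Acaa1b together were not used. Ehhadh, the peroxisomal bifunctional enzyme and a classical PPARα target, gave liver signals of 7438 without and 5535 with the transgene, and duodenal signals of 2627 and 1198, a fold of 1.34 lower in liver and 2.19 lower in duodenum.

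Crot, which makes carnitine esters of medium-chain acids for export from peroxisomes, gave liver signals of 17670.2 without and 12480.5 with the transgene, and duodenal signals of 3342 and 1438. It was 1.42-fold lower in liver, under the threshold, and 2.32-fold lower in duodenum; a second probe set, below the floor in wild-type liver, gave log2 ratios of 0.45 and -0.57. Pex11a, which promotes peroxisome division, gave liver signals of 4208 without and 2920.5 with the transgene, and duodenal signals of 2543 and 4904. Its fold was 1.44 lower in liver and 1.93 higher in duodenum, and its other probe set gave the same directions, at log2 ratios of -0.30 and 0.80. Eci2, an enoyl-CoA isomerase, gave liver signals of 6888 without and 4349 with the transgene, and duodenal signals of 1736 and 1781, 1.58-fold lower in liver and at 1.03-fold in duodenum. In duodenum, of the 6 peroxisomal genes 2 were called higher, 2 lower and 2 neither, where 19.2% of all genes were higher and 25.9% lower.

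The carnitine shuttle moves long-chain acids into mitochondria, and its entry enzyme Cpt1a controls the rate. Cpt1a gave liver signals of 11369 without and 6968 with the transgene, and duodenal signals of 4252 and 5521, 1.63-fold lower in transgenic liver and 1.30-fold higher in duodenum. Its other probe sets gave liver log2 ratios of -0.22 and 0.57, and the mean over all of them was -0.12. Cpt2, which reverses the reaction inside the mitochondrion, gave liver signals of 4291 without and 3941 with the transgene, and duodenal signals of 1732 and 4185, a fold of 1.09 lower in liver and 2.42 higher in duodenum. The other probe set of Cpt2 gave -0.85 in duodenum, opposite in direction. The translocase Slc25a20 and the carnitine acetyltransferase Crat had log2 ratios of -0.09 and -0.51 in liver and 0.48 and 0.32 in duodenum. The other probe set of Slc25a20 gave -0.39 in duodenum, opposite in direction. Those of Crat gave 0.93, past the threshold, and -0.40, and the former represents Crat when probe sets that bind several transcripts are left out.

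Of the 10 enzymes of mitochondrial β-oxidation, 9 had a log2 ratio below 0 in liver, but only the dehydrogenases Acadl and Acadvl were called. Acadl, for long-chain substrates, gave liver signals of 8191 without and 5178 with the transgene, and duodenal signals of 4727 and 2884, 1.58-fold lower in liver and 1.64-fold lower in duodenum. Acadvl, for very long chains, gave liver signals of 11326 without and 7466 with the transgene, and duodenal signals of 2742 and 4829.6, 1.52-fold lower in liver and 1.76-fold higher in duodenum. Loess put the liver log2 ratios of Acadl and Acadvl at -0.58 and -0.48, under the threshold. Acads, for short chains, gave liver signals of 1652 without and 1454 with the transgene, and duodenal signals of 612 and 1764, a fold of 1.14 lower in liver and 2.88 higher in duodenum. Acadm, for medium chains, gave liver signals of 17153 without and 12853 with the transgene, and duodenal signals of 4376 and 4166, with folds of 1.33 lower in liver and 1.05 lower in duodenum. The 4 acyl-CoA dehydrogenases, which share a reaction and differ in chain length, thus had duodenal log2 ratios from -0.71 to 1.53.

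The trifunctional protein carries out the later steps for long chains, and its subunits are encoded by Hadha and Hadhb. Hadha gave liver signals of 5847 without and 5390.1 with the transgene, and duodenal signals of 3911 and 4863. Hadhb gave liver signals of 7514 without and 7791 with the transgene, and duodenal signals of 5450.1 and 6668. On their brightest probe sets the pair had log2 ratios of -0.12 and 0.05 in liver and 0.31 and 0.29 in duodenum, all under the threshold. The other probe sets of Hadhb gave -0.19 and -1.17 in duodenum, opposite in direction to the brightest, which by its suffix can bind related transcripts.

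The subunit genes are read in opposite directions from starts 273 bases apart, so that their promoter windows share 228 bases. The window is shown because the genes encode partners in a complex and had similar ratios on their brightest probe sets. It is the Hadhb window at chr5:30155003-30155302, plus strand, build GRCm38.p6, with the bases shared with the Hadha window (chr5:30154931-30155230, minus strand) in capitals.
Hadhb: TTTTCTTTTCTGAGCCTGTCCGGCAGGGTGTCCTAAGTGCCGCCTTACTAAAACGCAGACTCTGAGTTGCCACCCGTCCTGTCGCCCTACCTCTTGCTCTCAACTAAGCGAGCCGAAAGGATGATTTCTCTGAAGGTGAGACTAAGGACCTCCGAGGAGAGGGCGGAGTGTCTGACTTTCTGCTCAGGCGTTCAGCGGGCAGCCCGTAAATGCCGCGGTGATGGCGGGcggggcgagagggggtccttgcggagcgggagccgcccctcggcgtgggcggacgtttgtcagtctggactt

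On their brightest probe sets the remaining mitochondrial enzymes had liver log2 ratios between -0.38 and -0.32 and duodenal ones between 0.03 and 0.52. They are the short-chain dehydrogenase Hadh, the thiolase Acaa2, and Decr1 and Eci1, auxiliary enzymes for unsaturated acids. Hadh gave liver signals of 60129 without and 46780.3 with the transgene, and duodenal signals of 51433 and 70618. By its suffix this probe set can bind related transcripts. The other probe sets of Hadh gave log2 ratios of -0.28 and -0.05 in liver and -0.02 and 0.30 in duodenum. The other probe set of Decr1 gave -0.58 in liver, just under the threshold, and -0.22 in duodenum, opposite in direction to the brightest. For Acaa2 all 3 probe sets gave liver log2 ratios between -0.42 and -0.38, while in duodenum they ranged from -1.45 to 0.03, with a mean of -0.73, past the threshold.

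The electron transfer flavoprotein, made of Etfa and Etfb, collects electrons from the acyl-CoA dehydrogenases, and Etfdh passes them to ubiquinone. Etfa gave liver signals of 13951 without and 13123 with the transgene, and duodenal signals of 5599.7 and 2812, and Etfb gave liver signals of 20622 without and 18473 with the transgene, and duodenal signals of 6237 and 14910.1. The subunits had folds of 1.06 and 1.12 lower in liver, but in duodenum Etfa was 1.99-fold lower and Etfb 2.39-fold higher. Each subunit is read by a single probe set, so no other probe set was available for comparison. Etfdh gave liver signals of 6602 without and 5021 with the transgene, and duodenal signals of 1123 and 875, folds of 1.31 lower in liver and 1.28 lower in duodenum.

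Of the 27 genes with a promoter window, only Etfdh held TNGCGTG, an extended form of the sequence that AhR and its partner bind, and its window is shown for that reason. The motif occurred in 5.07% of all windows, and its core GCGTG in 12 of the 27 genes (44.4%) against 32.4% of all windows, on both strands. The window lies at chr3:79628718-79629017, minus strand, build GRCm38.p6, and capitals mark the match, which is on the opposite strand.
Etfdh: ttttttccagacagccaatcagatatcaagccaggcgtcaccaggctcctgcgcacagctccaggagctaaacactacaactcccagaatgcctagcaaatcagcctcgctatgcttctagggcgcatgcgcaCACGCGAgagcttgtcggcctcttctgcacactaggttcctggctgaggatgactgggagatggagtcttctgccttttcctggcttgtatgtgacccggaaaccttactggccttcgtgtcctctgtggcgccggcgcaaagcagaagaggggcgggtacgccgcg
Neither of the Etfdh ratios reached the threshold.

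Agreement between probe sets gives a partial view of the precision. In liver, 15 genes had more than 1 probe set above the floor, and for 10 all of them pointed the same way; in duodenum this held for 6 of 14. Of those called, 2 of 4 in liver and 5 of 6 in duodenum had all probe sets in the same direction. The plot of probe sets shows this gene by gene.

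**Figure D3:**
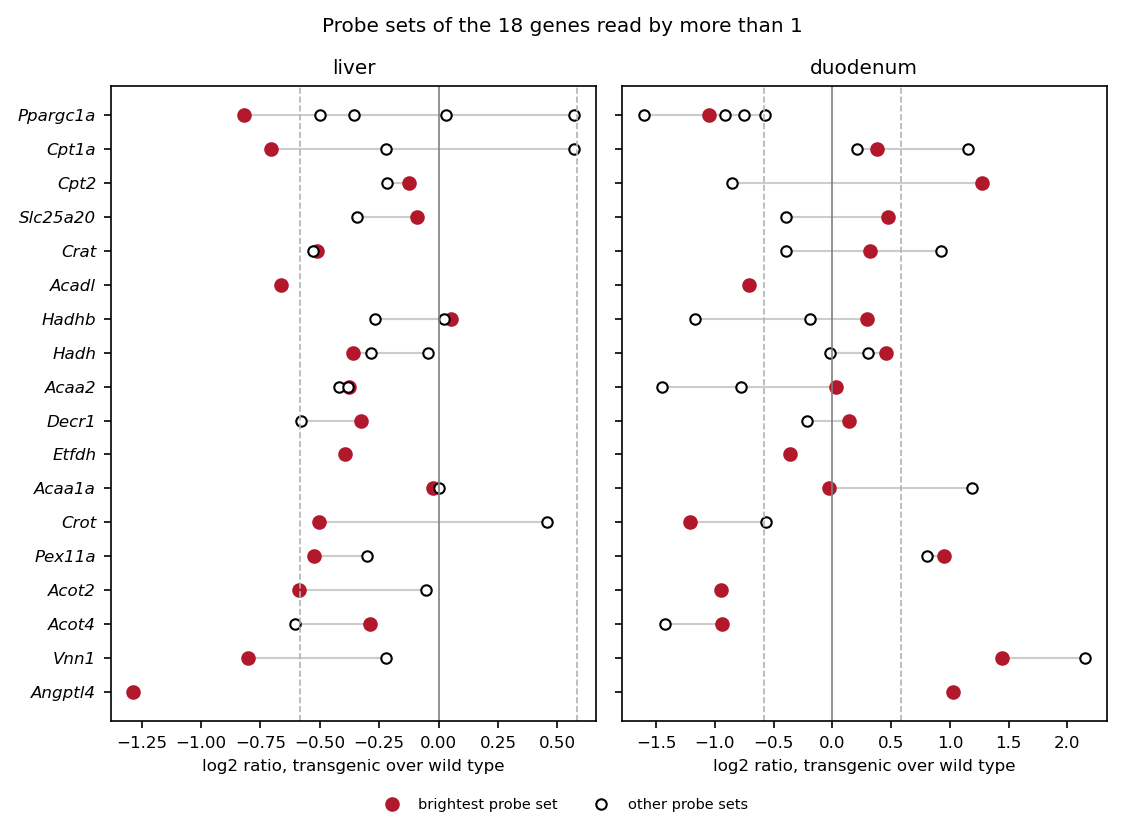
Log2 ratio of transgenic over wild type in liver (left) and duodenum (right) for each probe set above the floor on at least 1 of the arrays compared, of the 18 genes read by more than 1, with the brightest filled and the others open, and dashed lines at 1.5-fold. In liver the probe sets of Ppargc1a range from -0.82 to 0.57, and in duodenum those of Cpt2 have the widest spread, from -0.85 to 1.27.

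The level of these genes also differed between the tissues of wild-type mice, in a comparison that shares its arrays with both genotype comparisons. Of the 34 genes, 25 were called higher in wild-type liver than in wild-type duodenum, 3 lower and 6 neither, against 21.9% higher and 32.5% lower among all 14919 genes. At 2-fold or more 20 were higher and 2 lower, against 13.6% and 18.5%. The median log2 ratio was 1.28, where that of all genes was -0.18. Acot3 was at least 45.0-fold higher in liver, Acaa1b 26.5-fold and Cyp4a14 at least 13.0-fold. The genes higher in duodenum were Pdk4, at 6.59-fold, Ppargc1a, at 2.42-fold, and Acaa1a, at 1.77-fold. Ppargc1b, Hadh, Decr1, Hadhb, Crat and Hadha were called neither.

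Side by side, 5 genes were called lower in liver and higher in duodenum, 4 lower in both, 4 lower in liver alone, 4 higher in duodenum alone and 4 lower in duodenum alone, and 12 had no call in either tissue. Among all 12996 genes measured in both tissues these patterns took 1.97%, 3.67%, 6.06%, 13.9% and 19.2%, in the same order. Lower in both were Ppargc1a, Acadl, Acot1 and Acot2. No gene was called higher in liver. Whether the genotype difference itself differs between the tissues could not be tested, since 4 arrays in 4 groups leave no residual spread.

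Other genes of the pathway were described from 7 further lists of 136 symbols, of which 115 had a probe set. In liver, 18 of 107 measured were lower and 8 higher, with a median log2 ratio of -0.19, and in duodenum 25 of 109 were lower and 25 higher, with a median of -0.07. Among all genes, 12.1% were lower and 13.5% higher in liver, and 25.9% lower and 19.2% higher in duodenum, so the duodenal counts were near the background. Among PPAR receptors and their partners, 2 of 13 were lower in liver and 0 higher. Ppara itself gave liver signals of 11408 without and 7669 with the transgene, and duodenal signals of 2979 and 3724, a fold of 1.49 lower in liver, just under the threshold, and 1.25 higher in duodenum. Its dimer partner Rxra gave liver signals of 2194 without and 2464 with the transgene, and duodenal signals of 574 and 1382, 2.41-fold higher in duodenum. Creb3l3, a hepatic fasting factor that works with PPARα, was 1.52-fold lower in liver at 13508 against 8885. In duodenum 3 of the 14 receptors and partners were higher and 4 lower, with Ppard, the PPAR form prominent in gut, 2.56-fold higher and the corepressor Nrip1 2.48-fold lower.

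Of 19 further genes of mitochondrial fatty acid oxidation, 3 were lower in liver and 0 higher, with a median of -0.38. As above, 12.1% of all genes were lower and 13.5% higher in liver. The lowest were the carnitine transporter Slc22a5 (1.54-fold lower) and the dehydrogenase Hsd17b10 (1.53-fold lower). Of 33 further peroxisomal genes measured in liver, 3 were lower and 0 higher, with a median of -0.15. The lowest were Hacl1, a lyase of α-oxidation, 2.05-fold lower at 20243 against 9894, and the reductase Decr2, 1.59-fold lower at 10746 against 6748. In duodenum Decr2 was 4.28-fold lower and Pex3, needed to form peroxisomal membranes, 3.58-fold lower, while Pex14 and Pex16, also of peroxisome assembly, were 2.92-fold and 2.12-fold higher. Of 5 further thioesterases 0 were called in liver, and in duodenum 1 was higher and 2 lower, among them Acot7, 2.46-fold higher, and Acot13, 1.91-fold lower.

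The liver calls differed in how they held under other settings, as the plot of settings shows. Acot1, Ppargc1b, Cyp4a14, Acot3 and Angptl4 stayed lower by 1.5-fold or more under each setting run for them (7 for Acot1, Ppargc1b and Cyp4a14, and 6 for Acot3 and Angptl4), the scale of the spiked controls included. Acaa1b and Eci2 did so under all but that scale. Acot1, Ppargc1b, Cyp4a14 and Acaa1b have a single probe set each, so settings on the use of probe sets could not change their values. Probe sets that bind several transcripts could not be left out for Acot3, Angptl4 and Eci2, which had no other above the floor. In duodenum 14 of 17 calls held under each setting run for them, and those that did not were Cpt2, Acot1 and Acot4. The mean over probe sets put Cpt2 at 0.21.

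**Figure D4:**
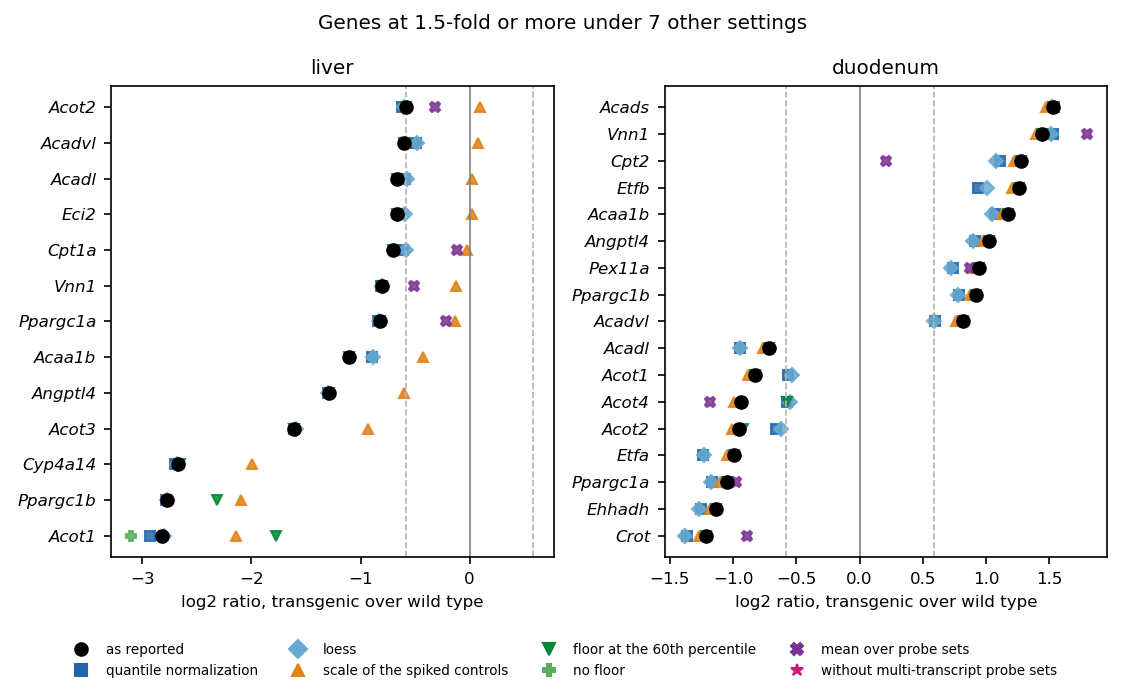
Log2 ratio of transgenic over wild type for the 13 genes called in liver (left) and the 17 called in duodenum (right), as reported (black) and under 7 other settings (coloured marks), with dashed lines at 1.5-fold. On the scale of the spiked controls the liver values shift to the right, and 5 genes keep a ratio beyond the threshold.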

How the data were processed

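Per the labels' protocols, Trizol was used to prepare RNA, and biotin-labelled cRNA went onto 4 Affymetrix Mouse Genome 430 2.0 arrays, 1 per genotype and tissue. The deposited values are linear intensity (signal) values that the authors made with MAS5 (per the submitters' processing notes). Its version, detection calls and scan data are not given in the sources used. The deposited values have the same trimmed mean on every array, so only differences relative to the bulk of probe sets can be read from them.

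Of 45101 probe sets, 34958 have 1 gene symbol in the platform annotation, 932 have several and 9211 are not listed there with a symbol. Each gene took its probe set with 1 symbol and the highest mean log2 signal, which gave 18194 genes. The floor of 129.3 is the mean over arrays of the 40th percentile. The comparisons were transgenic over wild type in each tissue and wild-type liver over wild-type duodenum, as log2 ratios with a call at 1.5-fold. No test was possible with 1 array per group. All listed genes were described; genes named from the further pathway lists were drawn from the 2 highest and 2 lowest log2 ratios of each list and tissue, with Ppara, Rxra, Fabp1 and Cyp1a1 always named. Some genes are not reported here. The genes and lists were chosen with earlier results of these data known, and the comparison with bright genes was added after the data were seen. Alternatives were quantile normalization, loess (fraction 0.3), the scale of spiked controls, other floors, other uses of probe sets and a 2-fold threshold. Promoter windows were matched by symbol in a RefSeq table of build GRCm38.p6. Calculations used Python 3.11.15, pandas 2.3.3, numpy 2.4.6 and statsmodels 0.14.6, and were tested on simulated data.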

Additional observations from a re-analysis of the deposited data

Results flagged for a closer look

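For 5 genes the transgenic over wild-type ratio reached the threshold in opposite directions in the tissues, lower in liver and higher in duodenum, as it did for 1.97% of all 12996 genes measured in both tissues. The log2 ratio in duodenum minus that in liver was 3.70 for Ppargc1b, 2.31 for Angptl4, 2.28 for Acaa1b, 2.25 for Vnn1 and 1.42 for Acadvl. With 1 array per tissue and genotype the difference was not tested.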

How the results depend on the processing

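No paired analysis was possible because each group has 1 array and the labels give no replicate numbers; for the same reason no array could be left out. On the scale of the spiked controls 6 of the 34 genes were higher and 5 lower in liver, and their median log2 ratio was 0.26. On it 3 genes were called in opposite directions in the tissues. Ppargc1b and Angptl4 were still lower in liver, at -2.10 and -0.61, and higher in duodenum. The other was Etfa, higher in liver at 0.59 and lower in duodenum. Acaa1b, Vnn1 and Acadvl lost their liver call, at -0.42, -0.12 and 0.080. On that scale the liver log2 ratio turned to 0.020 for Acadl, 0.080 for Acadvl, 0.018 for Eci2 and 0.094 for Acot2. At a 2-fold threshold 6 genes were lower in liver and 3 in duodenum, and 2 were called in opposite directions. Under the other alternatives the number lower in liver lay between 9 and 13 and the number higher was 0. In duodenum, apart from the 2-fold threshold, between 8 and 10 genes were higher and between 6 and 9 lower. Of the liver calls 5 of 13 held under every setting run for them other than the threshold, and 7 of 13 without the spiked-control scale. Of the duodenal calls 14 of 17 held. Signals near the floor, as for Acot3 and Cyp4a14 in duodenum, give only bounds.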

Other observations

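Enzymes of microsomal ω-oxidation, which prepare fatty acids for peroxisomes, were lower in liver in 4 of 7 measured cases and higher in 1, with a median log2 ratio of -0.60. Among all genes, 12.1% were lower and 13.5% higher in liver, and 25.9% lower and 19.2% higher in duodenum. Aldh3a2, a fatty aldehyde dehydrogenase, was 2.42-fold lower in transgenic liver at 6304 against 2607, and the epoxygenase Cyp2j5 1.79-fold lower at 7833 against 4368. Cyp4a12a, a hydroxylase, was below the floor in wild-type liver and at least 2.53-fold higher in transgenic liver. In duodenum 1 of 6 was higher and 1 lower. Of ketone body genes, 1 of 4 was higher and 1 lower in liver, and 2 of 5 were higher in duodenum. Oxct1, which lets tissues use ketone bodies, was the gene called higher in liver, 2.57-fold at 132 against 338. Its wild-type liver signal was close to the floor of 129.3.

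Of further PPARα targets, 6 of 26 were higher and 5 lower in liver, and 9 of 28 higher and 5 lower in duodenum. The shares of all genes were 13.5% higher and 12.1% lower in liver, and 19.2% higher and 25.9% lower in duodenum. Pank1, a kinase of coenzyme A synthesis, gave liver signals of 7419 without and 3519 with the transgene, and duodenal signals of 362 and 1172, 2.11-fold lower in liver and 3.23-fold higher in duodenum. Vldlr, a lipoprotein receptor, was 4.72-fold higher in duodenum, and G0s2, an inhibitor of fat breakdown, 2.08-fold higher in liver. Fabp1, the fatty acid binding protein of liver and gut, gave liver signals of 82578 without and 52939 with the transgene, and duodenal signals of 84395 and 56404, 1.56-fold lower in liver and at a log2 ratio of -0.58 in duodenum, just under the threshold. These differences have no replicate check.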
